A study of Mus musculus with 3 samples.

Results

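The contacts of the mouse Sox2 gene were examined in 3 Capture Hi-C (CHi-C) libraries, Samples 3, 4 and 5, through the di-tags that had an end in the 20 kb Sox2 window, from 34540000 to 34559999 on chromosome 3 of the mm9 build. A di-tag is a sequenced pair of ligated restriction fragments, and each one is counted here as 1 contact. Its members were taken by coordinates and not by a measured value, though the window itself was chosen with earlier results of these data known. It held 370 of 9376907 di-tags in Sample 3, 247 of 8596799 in Sample 4 and 248 of 8821161 in Sample 5 after removal of duplicates, or 865 of 26794867 in all. All 3 libraries come from cells of strain C57BL/6 with the cell type given as embryonic stem cells, which were fixed with formaldehyde and digested with HindIII. No age, treatment, genotype or cell line is stated, nor whether the libraries came from separate cultures, so the spread between them may be technical. The labels of Sample 3 contradict each other, since its source is entered as foetal liver, although the study describes all 3 libraries as made from embryonic stem cells. This library also stood apart in the distances of its contacts, so values are given for each library. These sequence lists hold no transcript levels, so the labelled cell type could not be checked against marker genes.

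Sox2 encodes a transcription factor with an HMG-box DNA-binding domain. Together with Oct4 it binds enhancers of many genes that keep embryonic stem cells pluripotent, and it later acts in neural progenitors. In mouse embryonic stem cells a cluster of enhancers lying downstream of the gene, the Sox2 control region, is known to drive most of its transcription and to be brought close to the promoter by looping. In the RefSeq table of the GRCm38 build Sox2 lies within the span of the long non-coding RNA gene Sox2ot, and the nearest protein-coding genes are Dnajc19 on the upstream side and Atp11b on the downstream side. Coordinates of that build were not carried over to the mm9 positions used for contacts.

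CHi-C ends arise next to HindIII sites, so the sequence just before the Sox2 start site is shown to see whether it holds such a site. It covers chr3:34649745-34649994 of GRCm38.p6, plus strand, from RefSeq. The capitals mark the reverse complement of a CCAAT box.

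Sox2: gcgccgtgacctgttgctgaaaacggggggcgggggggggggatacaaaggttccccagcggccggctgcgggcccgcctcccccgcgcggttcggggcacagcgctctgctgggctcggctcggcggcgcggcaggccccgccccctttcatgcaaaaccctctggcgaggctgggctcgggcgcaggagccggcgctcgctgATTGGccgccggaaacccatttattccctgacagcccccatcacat

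The HindIII site, AAGCTT, which reads the same on both strands, is not among these 250 bases, whereas 6.16% of 27025 promoters hold it in the same stretch. CCAAT, searched on both strands, begins 46 bases before the start site, and 34.5% of promoters hold it. GGGCGG, the core of a GC box, searched in the same way, begins 223 and 111 bases before the start site, overlaps no other match, and is held by 32.9% of promoters. G and C make up 72.0% of the bases, against a median of 52.0% over all promoters. These matches describe letters and not binding.

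Inside the Sox2 window the ends lay in few places. Each library had ends in only 7 of the 20 stretches of 1 kb. The group with the most ends over all libraries was of plus-strand reads between 34541379 and 34541811, with 159, 70 and 62 ends in Samples 3, 4 and 5. The next was of minus-strand reads between 34546428 and 34546813, with 107, 76 and 81 ends, which made it the larger of the 2 in Samples 4 and 5. Both groups together made up 70.7%, 56.6% and 55.2% of the ends in the window. Farther downstream a smaller group of plus-strand reads, from 34558007 to 34558618, held 45, 45 and 32 ends. The first group thus took a larger part of the window in Sample 3 than in the other libraries, while the second took between 28.5% and 31.3% in every library.

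**Figure D1:**
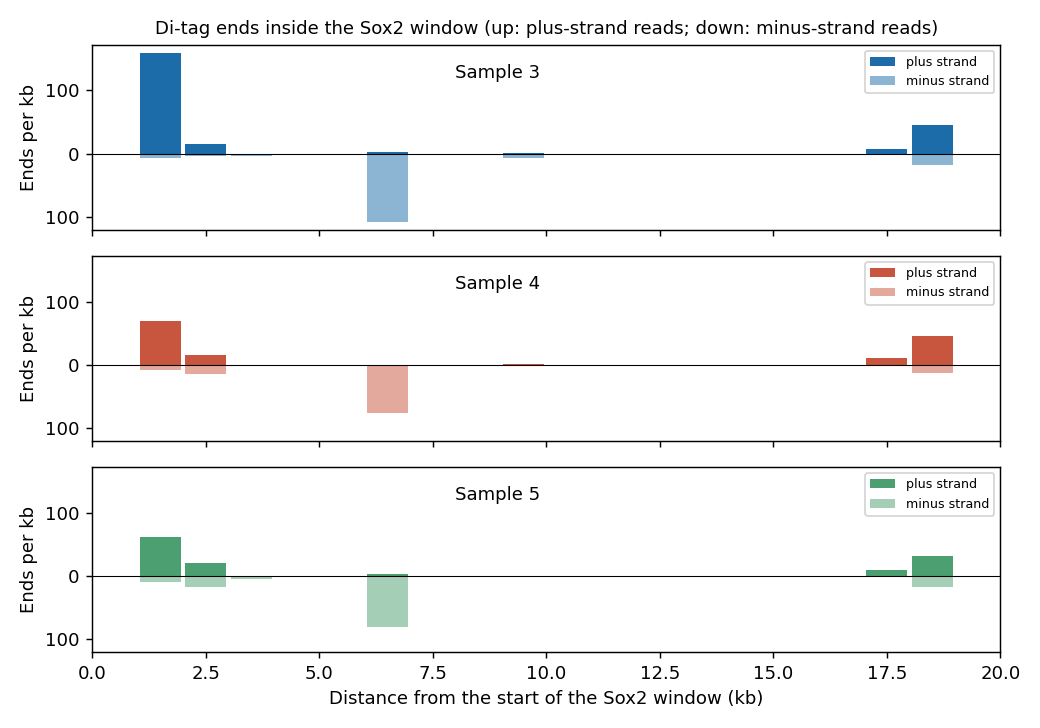
Number of di-tag ends per 1 kb (y axis) against the distance from the start of the 20 kb Sox2 window in kb (x axis), with plus-strand reads drawn upwards and minus-strand reads downwards, 1 panel per library. In each library the ends fell in 7 stretches of 1 kb, and the tallest bars hold 159, 76 and 81 ends in Samples 3, 4 and 5.

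The first 10 kb of the window were among the well covered regions of the genome and the last 10 kb were nearer to the median. Coverage is the number of di-tag ends per 10 kb region. The first region had 306, 190 and 200 ends in Samples 3, 4 and 5, a level reached by 4.26%, 6.70% and 6.18% of the covered regions. The second had 70, 68 and 59 ends, beside genome medians of 44, 48 and 50. The list of baited fragments was not used here. Within 500 kb of the window no region was more covered than the one from 34480000 to 34489999, with 464, 546 and 526 ends.

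The downstream control window, from 34650000 to 34669999, lies 90 to 110 kb beyond the edge of the Sox2 window and was thinly covered. Its first region had 15, 12 and 21 ends and its second had 32, 26 and 24, all below the genome medians. The mirror window at the same distance upstream, from 34430000 to 34449999, had 76, 120 and 89 ends in its first region and 18, 53 and 44 in its second. The region from 34630000 to 34639999, between Sox2 and the control window, had no end in any library and was 1 of 6 such regions among the 220 of the described interval, from 33500000 to 35699999. The mirror window therefore had more di-tags than the control window in every library, with 91 against 47, 157 against 37 and 130 against 45.

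**Figure D2:**
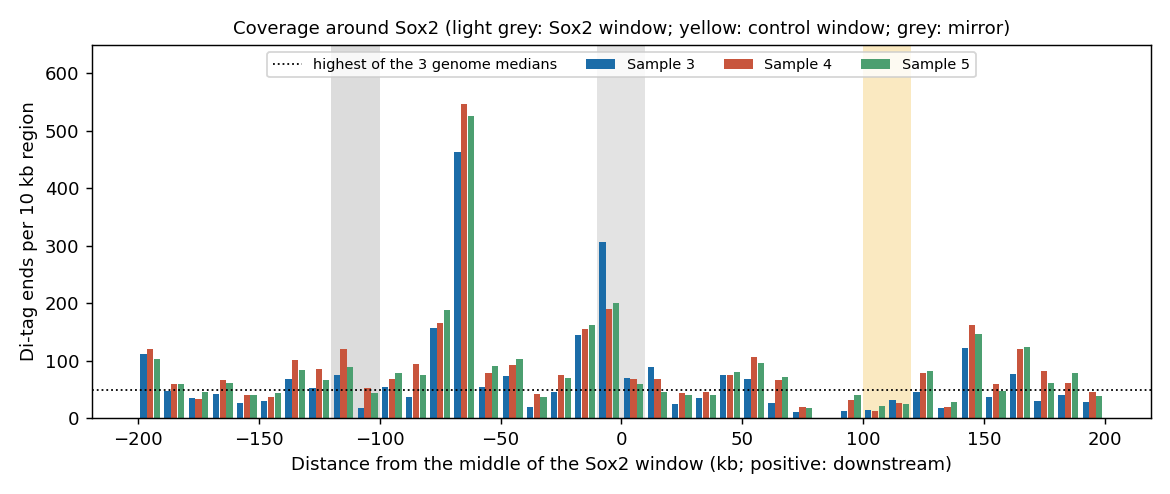
Di-tag ends per 10 kb region (y axis) against the distance from the middle of the Sox2 window in kb (x axis), with 1 bar per library and the highest of the 3 genome medians, 50 ends, as a dotted line. The regions of the control window, at 32 ends or fewer, sit below that line and the first 10 kb of the Sox2 window, at 190 or more, sit far above it.

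The question was whether the Sox2 window was joined to the downstream control window more often than to its upstream mirror. The counts were too low to answer it. Sample 3 had 0 di-tags with the control window and 0 with the mirror among 187 cis di-tags, that is, di-tags with both ends on chromosome 3, here with the other end outside the Sox2 window. Sample 4 had 0 and 0 among 79. Sample 5 had 2 with the control window and 0 with the mirror among 83.

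The 2 di-tags of Sample 5 fell 1 in each 10 kb region of the control window. One joined position 34558440 to 34652177 and the other joined 34558418 to 34664416. Both thus started among the positions of the smaller group near the downstream edge and not in the 2 larger groups. Minus-strand reads also lay there, with 17, 12 and 17 ends in Samples 3, 4 and 5, and the strand of the 2 di-tags is not given here. They had 1 and 2 copies in the list with duplicates retained. The difference between downstream and upstream counts averaged 0.667 ± 1.15 di-tags (SD, n = 3 libraries). An exact sign-flip permutation test, two-sided, gave p = 1, the only value it could give with differences of 0, 0 and 2, so it decides nothing. With the first 10 kb of the Sox2 window alone, and the mirror moved to keep equal distance, the direction turned, to -0.667 di-tags on average.

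As a share of cis di-tags, the control window took 2.41% in Sample 5 (exact Clopper-Pearson 95% interval 0.293% to 8.43%). A count of 0, taken as up to 3 counts, allows shares of up to 1.60% in Sample 3 and 3.797% in Sample 4. The two-sided exact intervals of these zeros, drawn in the plot of shares, are wider and reach 1.95% and 4.56%. These intervals and limits cover counting error only and not the spread between libraries, also where the libraries are summed. The di-tags carry no molecular identifiers, so whether each is an independent contact was not tested. The mean over the libraries was 0.803% ± 1.39 (SD, n = 3). Over all 3 libraries, 2 of 349 cis di-tags lay in the control window, or 0.573% (0.0695% to 2.05%), and 0 of 349 in the mirror, which allows up to 0.860% by the limit of 3 counts and 1.05% by the exact interval. The shares did not differ detectably between libraries (Fisher's exact test, two-sided, on the di-tags of each pair of libraries, lowest adjusted p = 0.281 over 3 pairs), a test that compares libraries and not conditions. Adjusted over all 12 tests between libraries, with those of flank, far and cis share below, the lowest p of Fisher's exact test for this share was 0.161. This call depended on the counting, as the lowest adjusted p of Fisher's exact test was 0.0255 with the control window widened by 10 kb on either side. With the denominator within the described interval it was 0.758. With duplicates retained it was 0.0476, but there copies of the same 2 di-tags count as separate contacts, so that value is no evidence of a difference.

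For scale, the same share was computed at all 20 kb windows of the genome with at least 50% as many cis di-tags as Sox2. There were 26163, 35054 and 27644 such comparable windows in Samples 3, 4 and 5. With their di-tags pooled, 0.801%, 1.29% and 1.23% of the cis di-tags lay in 1 partner window at this distance. At the depth of Sox2 this comes to 1.498, 1.02 and 1.02 di-tags. The median share per window was lower, at 0.557%, 0.671% and 0.676% downstream. No di-tag at all in the downstream partner window, as at Sox2 in Samples 3 and 4, was found in 38.7% and 48.0% of the comparable windows. In Sample 5, 15.4% of them had a larger share than Sox2. The limits from 3 counts were thus 2.00 and 2.95 times the pooled share of comparable windows in Samples 3 and 4, and the upper ends of the exact intervals 2.44 and 3.54 times. Comparable windows were matched by their own cis di-tags and not by the coverage of their partner windows, while the control window was thinly covered. From coverage and distance, only 0.243, 0.163 and 0.160 di-tags were predicted between Sox2 and the control window in Samples 3, 4 and 5.

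**Figure D3:**
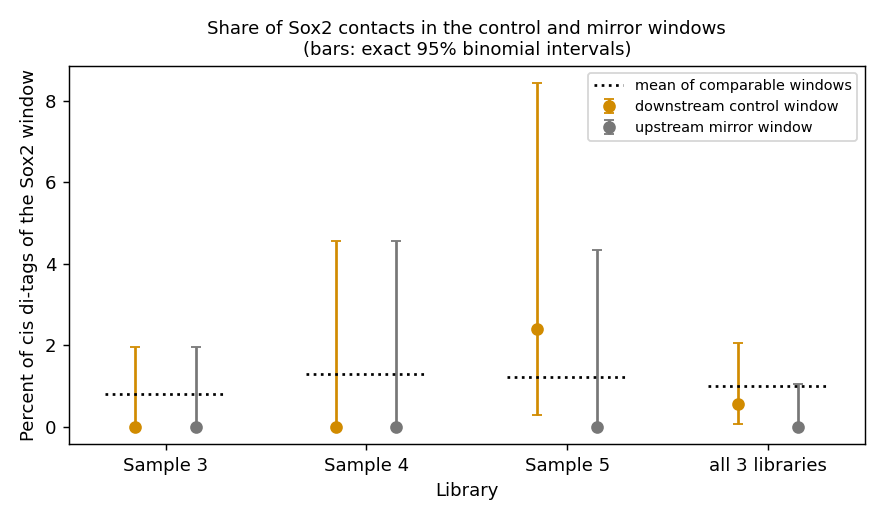
Percent of the cis di-tags of the Sox2 window (y axis) that fell in the downstream control window and in the upstream mirror window, per library and over all 3 (x axis), with exact 95% binomial intervals as bars and the pooled share of comparable windows (labelled mean) as dotted lines. Only the control window in Sample 5 and in the sum holds any di-tag, 2 in all, and its interval reaches from 0.293% to 8.43% in Sample 5.

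The split between both partner windows was tested at every 20 kb window with at least 10 di-tags in the 2 together, by an exact binomial test against an equal split with Benjamini-Hochberg adjustment. Of such windows, 16.1% were called unequal in Sample 3, 15.5% in Sample 4 and 17.4% in Sample 5. When the split was scaled by the coverage of both partner windows, the calls fell from 227, 88 and 46 windows to 24, 18 and 15. Windows with a partner window that had no other di-tag ends were left untested there, so these calls are not over the same windows. Sox2, with 0, 0 and 2 di-tags, did not reach the minimum and was not tested in any library.

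Single pairs of 10 kb regions gave no call at Sox2 either. A pair up to 2 Mb apart was called when it held at least 2 di-tags and more than its coverage and distance predicted (Poisson upper tail, adjusted p under 0.05 over all possible pairs). Such pairs of a Sox2 region with another region numbered 9, 9 and 11, and 0 of them were called in each library, with an adjusted p of 1 for all of them. In the whole lists 0.0285%, 0.0935% and 0.14% of pairs with at least 2 di-tags were called. At an unadjusted p under 0.05 stood 5 of 9, 4 of 9 and 7 of 11 Sox2 pairs, beside 37.5%, 37.3% and 38.0% of all pairs with at least 2 di-tags. Pairs with fewer di-tags were left out of both, so these are not shares of all possible pairs. From coverage and distance, 0.243, 0.163 and 0.160 di-tags were predicted between the Sox2 and control windows, and 0.5005, 0.769 and 0.484 between Sox2 and the mirror. A Sox2 pair with a control region would have needed 4 to 6 di-tags to be called.

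Outside the control window the partners of Sox2 were mostly single di-tags. In the described interval Sox2 joined other regions by 46, 57 and 61 di-tags. Of the 218 regions outside the window, 141 had no Sox2 di-tag in any library, 52 had one in 1 library, 16 in 2 libraries and 9 in all 3. The 9 included the regions touching the window, from 34530000 to 34539999 with 5, 2 and 9 di-tags and from 34560000 to 34569999 with 4, 7 and 3.

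At least 30 kb from the window, 5 regions were joined in all 3 libraries, 1 upstream and 4 downstream. The upstream one, from 34500000 to 34509999, had 3, 3 and 1 di-tags. The downstream ones started at 34600000 with 1, 2 and 1 di-tags, at 34690000 with 1, 1 and 2, at 34950000 with 1, 2 and 1, and at 35210000 with 1, 1 and 1. The farthest of them lies 650 kb from Sox2. All 5 regions were covered above the genome median in every library, with 56 to 163 ends. Recurrence of partner regions in all 3 libraries was not computed at other windows, so it cannot be read as particular to Sox2. The highly covered region at 34480000 was joined by 3 di-tags in Sample 3, 0 in Sample 4 and 6 in Sample 5. No region at this distance reached more than 6 di-tags. None of the di-tags of the Sox2 window was found with the same positions and strands in more than 1 library. The same count was not taken over the whole lists, so it cannot be read as particular to Sox2.

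**Figure D4:**
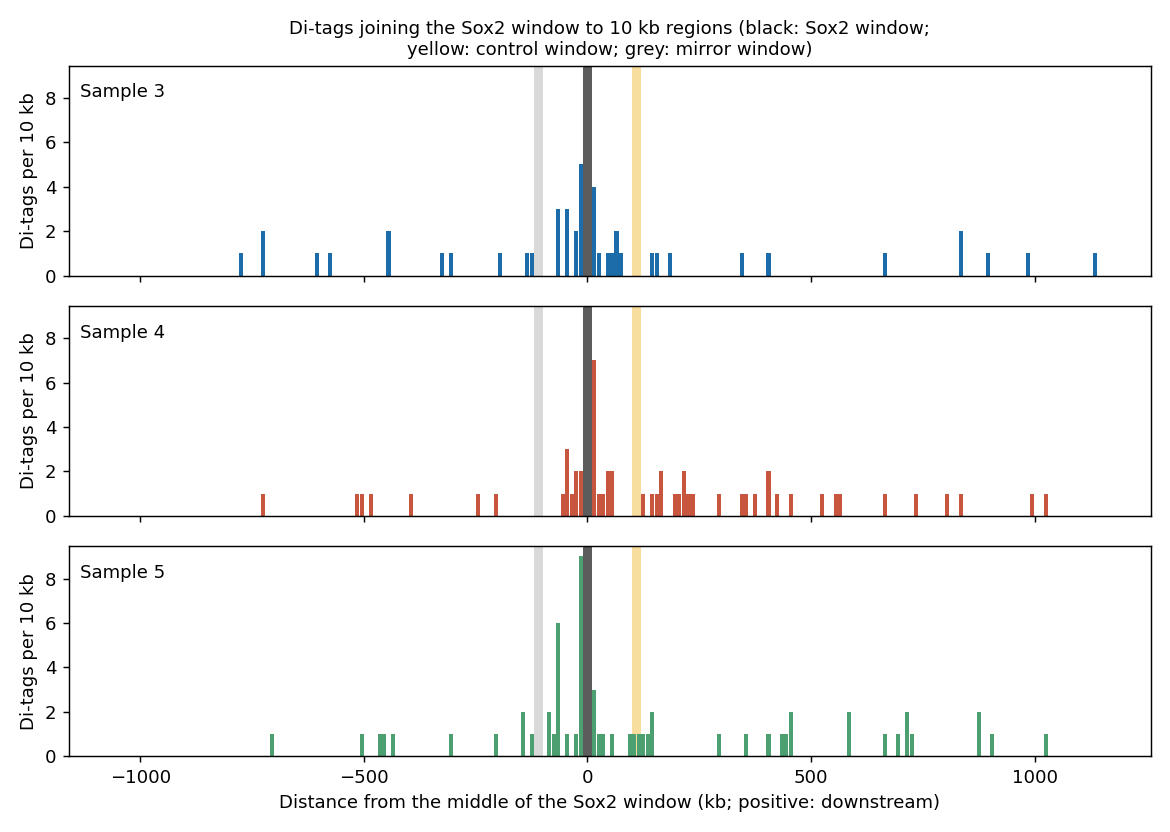
Di-tags joining the Sox2 window to each 10 kb region of the described interval (y axis) against the distance from the middle of the window in kb (x axis), 1 panel per library, with the Sox2 window in black, the control window in yellow and the mirror in grey. The tallest bars, with up to 9 di-tags, touch the window, and the control window holds bars only in Sample 5, of 1 di-tag each.

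Taking whole flanks of 1040 kb on either side, the split of Sox2 contacts was called unequal, with more downstream, in Sample 4 and not in the other libraries. Sample 3 had 20 downstream and 25 upstream di-tags, Sample 4 had 41 and 16, and Sample 5 had 31 and 30. The downstream share was 44.4% (95% interval 29.6% to 60.0%), 71.9% (58.5% to 83.0%) and 50.8% (37.7% to 63.9%). The exact binomial test, adjusted over all windows with at least 10 flank di-tags, gave p = 0.866, 0.0255 and 1. In the same test 9.49% of 62292 windows were called in Sample 3, 6.94% of 72037 in Sample 4 and 5.72% of 67799 in Sample 5, in either direction. The test was against an equal split and was not scaled by the coverage of the flanks. The most covered regions of the flanks, starting at 33780000 and 34480000, both lay upstream.

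Over the libraries the downstream share averaged 55.7% ± 14.4 (SD, n = 3), but it was 47.6% without Sample 4 and 49.7% with duplicates retained, both on the upstream side. The log2 ratio of downstream to upstream counts averaged 0.36 ± 0.88. An exact sign-flip permutation test, two-sided, gave p = 0.75, but with 3 libraries it cannot go below 0.25 and so could not have called a difference. Sample 4 differed from Sample 3 and from Sample 5 in this share by Fisher's exact test (adjusted p = 0.0189 and 0.0474 over 12 tests between libraries). The tests of flank share, and those of far and cis share below, were added after the counts were seen. They cover counting error on di-tags only and not the spread between replicate libraries. Sample 4 had 7 downstream against 2 upstream di-tags within 10 kb of the window, 6 against 7 from 10 to 50 kb and none from 50 to 110 kb. Beyond the control window it had 7 against 1 from 110 to 200 kb, 12 against 4 from 200 to 500 kb and 8 against 2 from 500 kb to 1 Mb. Sample 5 had 10 against 1 in the last of these classes but 1 against 9 from 50 to 90 kb, and Sample 3 had 5 against 5 and 3 against 3. No test was run on single classes.

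Sample 3 joined Sox2 to far more distant parts of chromosome 3 than the other libraries did. Partners at 5 Mb or more made up 102 of its 187 cis di-tags, or 54.5% (47.1% to 61.8%). They were 20 of 79 in Sample 4, or 25.3% (16.2% to 36.4%), and 16 of 83 in Sample 5, or 19.3% (11.4% to 29.4%). Sample 3 differed from either of the others (Fisher's exact test, adjusted p = 6.92e-05 and 4.59e-07 over 12 tests), and Samples 4 and 5 did not differ detectably (adjusted p = 0.663). The libraries stood in a similar relation elsewhere, as the median of comparable windows was 46.9% in Sample 3 against 26.2% and 27.5% in Samples 4 and 5.

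Partners under 1 Mb away made up 24.1%, 70.9% and 72.3% of the cis di-tags of Sox2, beside medians of 36.2%, 64.2% and 63.0% for comparable windows. Sox2 was thus below the median in Sample 3 and above it in Samples 4 and 5. The near share was as low as that of Sox2 or lower in 9.41%, 74.5% and 82.3% of the comparable windows of Samples 3, 4 and 5. The far share was as high or higher in 23.6%, 54.0% and 83.4%, so Sox2 lay within the range of other windows in each library.

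**Figure D5:**
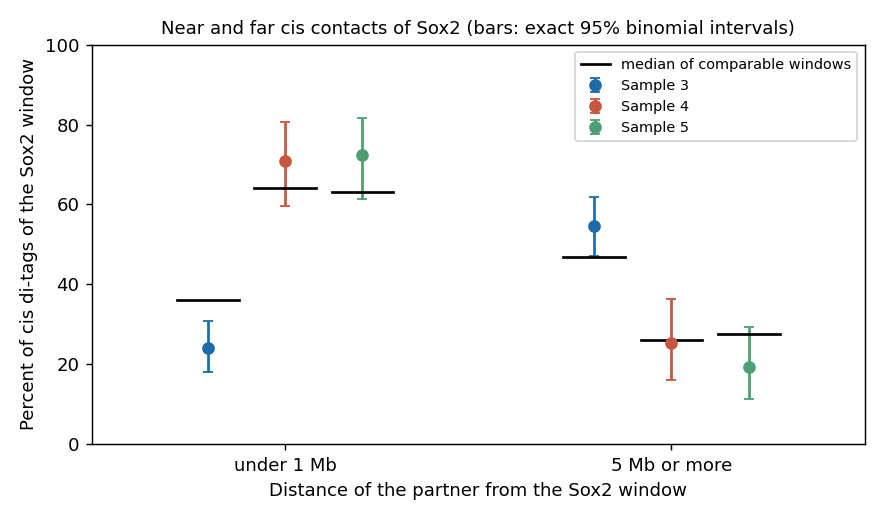
Percent of the cis di-tags of the Sox2 window (y axis) with the partner under 1 Mb or at 5 Mb or more (x axis), 1 point per library with its exact 95% binomial interval, and the median of comparable windows of that library as a black line. Sample 3 sits at 24.1% and 54.5%, and Samples 4 and 5 at 70.9% or more near and 25.3% or less far.

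Trans di-tags, with the partner on another chromosome, numbered 177, 157 and 154. Cis di-tags were 51.4%, 33.5% and 35.02% of those leaving the window, beside medians of 51.9%, 32.03% and 27.8% for comparable windows. Sample 3 exceeded Samples 4 and 5 in the cis share of Sox2 (Fisher's exact test, adjusted p = 6.92e-05 and 0.000244 over 12 tests). The trans partners fell in 446 regions of 1 Mb over the libraries, of which 28 were joined in at least 2 libraries and 0 in all 3. The same overlap was not computed at other windows, so it cannot be read as particular to Sox2. No region had a di-tag in every library to rank by, so the 3 named here had the highest totals, the last of them tied with others and first only by chromosome order. They held 1, 0 and 2 di-tags (chromosome 5, 32000000 to 32999999), 0, 3 and 0 (chromosome 7, 102000000 to 102999999) and 1, 1 and 0 (chromosome 1, 22000000 to 22999999) and no region held more than 3 in a library.

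The control window, taken as a viewpoint of its own, was joined to Sox2 by 0 of 47, 0 of 37 and 2 of 45 di-tags. Of its di-tags, 5, 1 and 8 led to the described interval. The mirror window was joined to Sox2 by 0 of 91, 0 of 157 and 0 of 130, with 9, 11 and 11 leading to the interval.

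In the lists with duplicates retained the Sox2 window had 2050, 1147 and 1031 di-tags, on average 5.54, 4.62 and 4.14 copies of each distinct one, and at most 34, 38 and 22. The whole lists held 7.24, 5.72 and 5.20 lines with duplicates retained for each line after removal. Cis di-tags of Sox2 had 5.43, 4.15 and 4.12 copies and trans di-tags 5.68, 4.94 and 4.18. Of the distinct di-tags, 27.0%, 31.0% and 35.7% had a single copy.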

How the data were processed

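Each list of Samples 3, 4 and 5 held 1 di-tag per line, as chromosome, position and strand of both reads, so the measure was the number of lines. HiCUP truncated reads at the ligation junction, mapped both reads of a pair separately and dropped artefacts. The submitters' processing notes name Bowtie 1.1.0 and mm9, and positions up to 152524262 on chromosome 7, past the last GRCm38 gene end there (145324059), set the lists apart from GRCm38.

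Lists with duplicates removed were used, and lists with duplicates retained were an alternative. Di-tags were counted in 10 kb regions, without restriction fragments, since no mm9 sequence was used here. Tests ran with Python 3.11.15 and scipy 1.17.1 across all windows or region pairs of the genome. Both tests were tested on simulated data with large planted changes, far above the counts at Sox2.

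The members, the windows and the rules for named sites were chosen with earlier results of these data known. The sites named were the control and mirror regions, called pairs, the 5 regions at least 30 kb away with the highest smallest count over the libraries, and 3 trans regions of 1 Mb by the same rule, which left ties at 0 that were broken by the total and then by position. The tests of cis share, far share and flank share between libraries were added after the counts were seen. A planned log2 ratio of control to mirror counts could not be formed with 0 counts, and their difference was used. CHiCAGO was not run.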

Additional observations from a re-analysis of the deposited data

How the results depend on the processing

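The depth of 79 to 187 cis di-tags per library limits every value at Sox2. The downstream minus upstream difference stayed within 1 SD (1.15) of 0.667 di-tags under 10 of 11 alternatives, a range that itself includes 0. With the first 10 kb of the Sox2 window alone it was -0.667: the 2 control di-tags start in the last 10 kb, and the mirror, moved to keep equal distance, held 1, 0 and 1 di-tags. With those last 10 kb alone, the control share was 4.17% on average (2 of 16 cis di-tags in Sample 5), against 0.803% as reported. The SD of 1.39 exceeds that mean, so staying within it in the other 11 alternatives says little: the share was 0% with the first 10 kb of the Sox2 window, 0.269% with all di-tags of the window in the denominator, trans and both ends inside included, 0.292% with duplicates retained, 0.402% with either 10 kb of the control window, 1.09% with the denominator within the interval and 2.03% with the control window widened. Leaving out each library gave differences between 0 and 1.00 and shares between 0% and 1.20%, both 0 without Sample 5. The lowest adjusted p between libraries fell from 0.281 to 0.0476 with duplicates retained, where copies count as di-tags, and to 0.0255 with the control window widened by 10 kb on either side, which held 0, 1 and 4 di-tags. The downstream flank share moved by less than 1 SD (14.4) from 55.7% in all 9 alternatives, but turned to the upstream side with duplicates retained (49.7%) and without Sample 4 (47.6%), and was 61.4% without Sample 3. The 0 called Sox2 pairs stayed 0 with regions of 5 kb and with each distinct di-tag counted once. Leaving out a library, at least 3 di-tags per pair and an adjusted p under 0.01 could only give 0. Coverage alone, without distance, called all 9, 9 and 11 pairs, 9.67 on average, as it did 99.2% to 99.9% of all such pairs, and duplicates retained gave 22.3, where 50.8% to 54.8% of all pairs were called. Windows with unequal partner windows, 120 on average, numbered 34.0 with at least 5 di-tags, 21.3 with at least 20, 37.0 at an adjusted p under 0.01, 19 with the split scaled by coverage, 49.0 and 34.7 with the first or last 10 kb of the partner windows, 361 with them widened and 14759 with duplicates retained; the cause was not tested. No paired analysis was possible because the libraries form 1 group.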
